A study of Homo sapiens with 402 samples.

Results

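The 9 genes followed here supply a cell with glutathione and with the NADPH that keeps it reduced. They were chosen by name: SLC7A11, GCLC, GCLM, GSS, GSR, PGD, TALDO1, TKT and ME1. They are 9 of the 34718 gene symbols counted on 4 plates, and 9 of the 15081 counted on the plate that held DDE. All 9 had a row in every library and passed the filter on low counts on each of the 5 plates. The smallest count of any of them in a tested library was 23 reads, for GSS.

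MCF10A, a non-tumorigenic human breast epithelial line of wild-type genotype, was exposed for 48 h to 1 of 21 chemicals at 0.025, 0.25, 2.5 or 25 µM, and RNA was sequenced with plexWell, a method that barcodes each well and then each plate. The chemicals carry the names of the labels. The metals, Arsenic, Cadmium, Copper, Lead and Mercury, shared plate 3153-AT and 15 controls in water. On plate 3206-AT there were 15 DMSO controls for the bisphenols BPA, BPF and BPS and for MPB and PPB. On plate 3284-AT there were also 15 DMSO controls, for Thiram, PCB153, PCB187, DCB_14 and DCP_25. On plate 3240-AT PFOA, in water, was set against 4 water controls, and Phenanthrene, PFDA, PFNA and PFOS, in DMSO, against 12 DMSO controls. DDE was alone on its plate and was set against 8 water controls of the same plate barcode. Groups held 4 libraries per dose, but cadmium at 25 µM held 2, and MPB and PPB held 3 each at 0.025 µM. All wells held the same line at the same passage, so the libraries of a dose are wells that the labels call biological replicates, and p-values measure the spread between those wells only.

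Of 402 libraries analysed here, 333 were dosed and 69 were controls, with 1.43 M to 25.8 M reads (M, mega) in each of the 401 that were tested. MCF10A markers KRT5, KRT6A, KRT17, KRT14, EPCAM, ITGA6 and EGFR were above 0 in all 401, while CDH1 was at 0 in 2 libraries and TP63 in 13. The blood markers PTPRC and CD3E, the endothelial markers CDH5 and VWF and the hepatocyte markers ALB and APOA1 had a median of 0, and the endothelial marker PECAM1 one of 1.19 CPM (0 to 10.1, at 0 in 62). On the 4 larger plates the controls with higher label numbers were shallower than those with lower numbers, with medians of 3.17 M against 20.9 M on plate 3153-AT and 3.18 M against 17.9 M on plate 3284-AT. Beside that split, GSR was higher by 0.53 ± 0.14 (SE) log2 units in the higher-numbered water controls of plate 3153-AT (edgeR adjusted p = 0.0122) and TALDO1 fell by 0.34 ± 0.08 (edgeR adjusted p = 0.0021), where 5.42% of all genes were called. On plates 3206-AT, 3240-AT and 3284-AT, where 1.69%, 0.175% and 1.55% of genes were called, edgeR called 0 of 27 member tests, 5 of them had an unadjusted p under 0.05, and DESeq2 called 0.

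Some libraries carried labels that disagree. A further library labelled as cadmium at 25 µM gave plate 3153-AT in its label with the plate barcode of 3284-AT. Its well barcode is that of control 14 on plate 3153-AT, control 30 on plate 3206-AT and control 46 on plate 3240-AT. Whether it held cadmium or a control cannot be told from the labels, and fits with it added carry that doubt. It held 1.28 M reads and was left out of the tests. In it none of the 9 genes lay above the highest water control, or above the highest DMSO control of plate 3284-AT, in CPM without TMM scaling. SLC7A11 was at 26.5, GCLM at 35.8 and GCLC at 192. GSR, at 22.6, and ME1, at 47.5, were under the lowest water controls with TMM scaling, at 38.1 and 84.7 CPM, and GCLM was under its lowest too. The 8 controls that share the barcode of the DDE plate are labelled as water controls of plate 3153-AT, while the solvent of DDE is labelled DMSO, so solvent and plate label cannot be told apart from DDE in that comparison.

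Glutathione is the main soluble thiol of the cell, and it takes up oxidants and binds metals and electrophiles. Its cysteine enters largely as cystine through the exchanger formed by SLC7A11 and SLC3A2. Glutamate-cysteine ligase, made of the catalytic subunit GCLC and the modifier subunit GCLM, carries out the rate-limiting step, and glutathione synthetase, GSS, adds glycine. Glutathione reductase, GSR, returns the oxidised form to the reduced one and spends NADPH. PGD, 6-phosphogluconate dehydrogenase, makes NADPH in the oxidative branch of the pentose phosphate pathway, TALDO1 and TKT, transaldolase and transketolase, run the non-oxidative branch that links it to glycolysis, and ME1, the cytosolic malic enzyme, makes NADPH from malate. Many of these genes are known targets of the transcription factor NRF2, which binds antioxidant response elements (AREs), and SLC7A11 is also known as a target of ATF4, a factor of the amino acid response.

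The bases before the start of 4 members are shown: GCLM and GCLC as subunits of the same enzyme, and ME1 and PGD as NADPH genes. The bases come from RefSeq on GRCh38.p14, which held entries for 6 of the 9 genes. Each run gives the 250 bases before the RefSeq start, 5′ to 3′ on the strand of the gene. Capitals mark a match to the core of an ARE, TGACNNNGC, searched on both strands. The windows lie at chr1:93909431-93909680 on the minus strand for GCLM, chr6:53545102-53545351 on the minus strand for GCLC, chr6:83431052-83431301 on the minus strand for ME1, and chr1:10398814-10399063 on the plus strand for PGD.
GCLM: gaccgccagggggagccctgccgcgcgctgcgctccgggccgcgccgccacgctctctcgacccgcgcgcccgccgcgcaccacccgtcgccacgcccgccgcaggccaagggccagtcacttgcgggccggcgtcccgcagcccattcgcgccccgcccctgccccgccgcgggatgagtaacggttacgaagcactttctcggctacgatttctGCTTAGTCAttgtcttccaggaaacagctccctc
GCLC: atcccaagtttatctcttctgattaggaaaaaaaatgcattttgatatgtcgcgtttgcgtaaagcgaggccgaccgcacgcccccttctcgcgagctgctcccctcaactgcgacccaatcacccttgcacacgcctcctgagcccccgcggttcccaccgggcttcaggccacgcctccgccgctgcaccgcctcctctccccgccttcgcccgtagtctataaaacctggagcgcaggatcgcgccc
ME1: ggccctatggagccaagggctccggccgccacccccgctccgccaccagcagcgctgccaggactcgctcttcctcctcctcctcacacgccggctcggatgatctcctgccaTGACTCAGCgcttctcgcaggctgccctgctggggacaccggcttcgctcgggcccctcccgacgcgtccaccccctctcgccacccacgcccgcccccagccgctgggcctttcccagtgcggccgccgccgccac
PGD: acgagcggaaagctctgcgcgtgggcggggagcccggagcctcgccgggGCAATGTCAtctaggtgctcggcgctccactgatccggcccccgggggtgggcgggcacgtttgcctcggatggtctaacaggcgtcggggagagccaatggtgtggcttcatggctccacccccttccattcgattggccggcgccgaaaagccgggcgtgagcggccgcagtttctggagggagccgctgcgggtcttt

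The match in GCLM, GCTTAGTCA as read on the strand of the gene, spans bases 34 to 26 before the start and lies on the opposite strand. The match in ME1, TGACTCAGC, spans bases 137 to 129 on the strand of the gene, and that in PGD, GCAATGTCA, spans bases 201 to 193 on the opposite strand. GCLC, TALDO1 and TKT had no match in their windows, and SLC7A11, GSS and GSR were not searched. The ARE core was in 10.91% of 35116 RefSeq promoter windows of this length (3830 windows). The core TGATGNAA of an amino acid response element, searched the same way, was in 3.144% of them (1104) and in none of the 6 members. A match is a stretch of letters, and nothing about binding was measured. Bases further from the start were not searched, and any part of a match in the changes of level was not tested.

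In the gene models of GENCODE v29 on GRCh38, SLC7A11 spans chr4:138164097-138242349 on the minus strand, GCLC chr6:53497341-53616970 on the minus strand and GCLM chr1:93885205-93909456 on the minus strand. GSS spans chr20:34928433-34956027 on the minus strand, PGD chr1:10398592-10420144 on the plus strand and TALDO1 chr11:747329-765024 on the plus strand. TKT spans chr3:53224707-53256052 on the minus strand and ME1 chr6:83210389-83431071 on the minus strand. By these spans the printed windows of PGD and GCLC lie within the gene, and those of GCLM and ME1 reach into it. The windows thus hold bases before the RefSeq start, which is not the outermost GENCODE start. Exons of SLC7A11 overlap those of SLC7A11-AS1 on the opposite strand, and exons of GCLC overlap those of AL033397.1 on the same strand and AL033397.2 on the opposite strand. No source used here gives the strand setting of the counting, so reads of these neighbours cannot be told apart from those of SLC7A11 and GCLC. PGD has the processed pseudogene PGDP1, and TKT has the relatives TKTL1 and TKTL2.

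At 25 µM the rise of these genes was a pattern of metals and of thiram, a dithiocarbamate fungicide. Levels are given as CPM, the counts scaled to a common library size of 1 M reads after TMM scaling. They compare libraries for the same gene and never one gene with another. A gene was called at an edgeR adjusted p (quasi-likelihood F-test, Benjamini-Hochberg over all genes of the comparison) under 0.05. Of the 189 pairs of member and chemical at 25 µM, 33 were called higher and 5 lower. The 9 members of arsenic were all called, 7 higher and 2 lower, where 41.4% of all 24295 genes tested were called (23.2% higher, 18.2% lower). Copper raised 7 members and lowered none (5.09% of genes called, 2.88% higher and 2.21% lower), and lead raised 6 and lowered none (3.85%, with 2.15% higher and 1.70% lower). Cadmium, with 2 libraries of 1.43 M and 1.45 M reads, raised 4 and lowered 1 (11%, with 5.67% higher and 5.38% lower). The cadmium directions depend on the scaling: the TMM factors of the 2 libraries were 0.491 and 0.555, against 0.951 to 1.13 in the water controls. With library totals in place of TMM, an alternative chosen after seeing the data, cadmium raised 1 member, GCLM, and lowered 4, GCLC, GSS, PGD and TKT. For that alternative no share of all genes called is given. Thiram raised 5 and lowered 1 (25.9%, with 13.7% higher and 12.2% lower).

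Mercury raised 2 members, GCLC and PGD, where 15 genes were called in all (0.0617%, with 0.0494% higher and 0.0123% lower). Its count depended on the fit: a term for library number (1 and 2 against 3 and 4, with the controls divided likewise) gave 6 higher, libraries 3 and 4 alone also gave 6, libraries 1 and 2 alone gave 1, library totals without TMM gave 1, and leaving out 1 library gave 0 to 2. For these other fits of mercury no share of all genes called is given, and the 0.0617% belongs to the main fit. DDE raised 1 and lowered 1 (7.77%, with 3.56% higher and 4.22% lower), and BPF raised 1 (0.0179%, with 0.0135% higher and 0.00448% lower). In the other 13 chemicals edgeR called 0 of 117 pairs, with log2 fold changes from −0.36 to 0.56. Of these, 10 pairs had an unadjusted p under 0.05 and DESeq2 called 0. The share of all genes called in them was 1.38% for MPB, 0.0668% for PFDA and for PFOS, 0.0235% for PCB187, 0.00514% for PFNA, 0.00448% for BPA and for PPB, 0.00469% for DCB_14 and for PCB153, and 0% for BPS, PFOA, Phenanthrene and DCP_25.

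**Figure D1:**
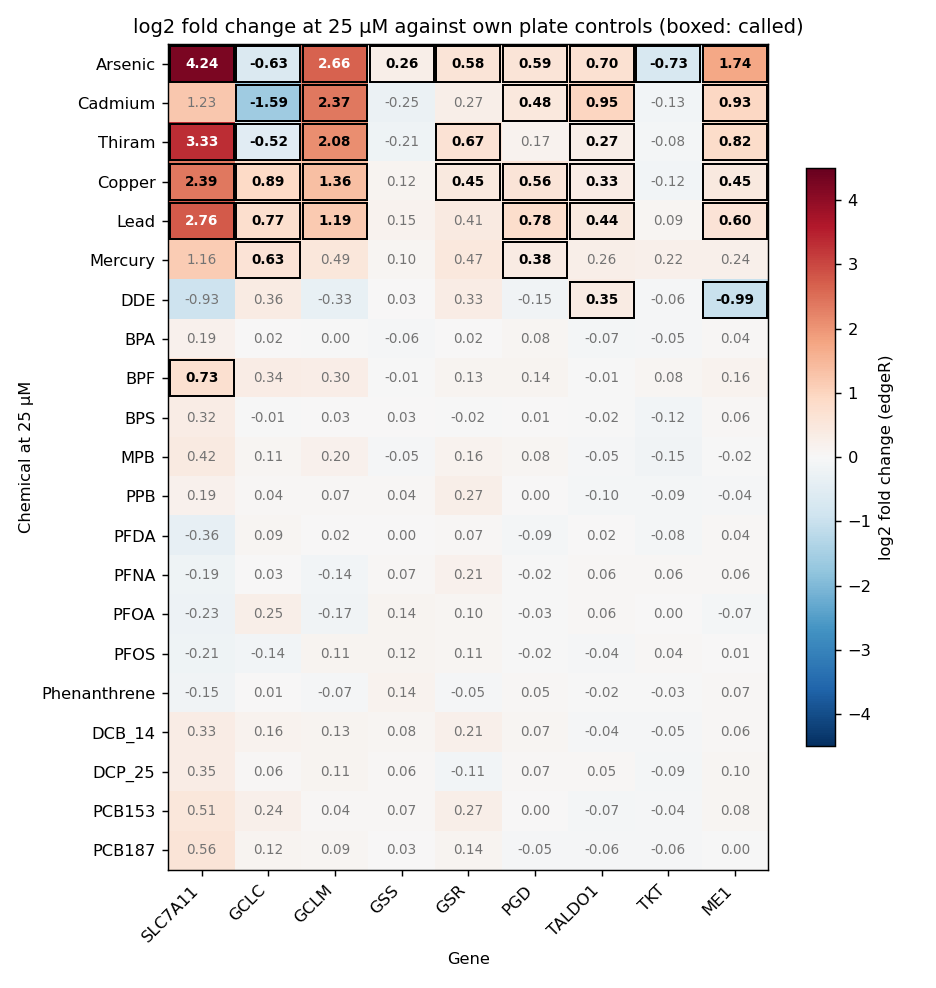
log2 fold change (edgeR) of the 9 members (columns) in each of the 21 chemicals at 25 µM (rows) against controls of the own plate and solvent, with boxes around the 33 higher and 5 lower calls. Boxes mark all 9 members in arsenic, 7 in copper, 6 each in lead and thiram, 5 in cadmium, 2 each in mercury and DDE and 1 in BPF, and SLC7A11 under arsenic is the highest at 4.24.

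Read by member, TALDO1 was called higher in 6 chemicals and SLC7A11, GCLM, PGD and ME1 in 5 each. GSR was called higher in 3 and GSS in 1. GCLC was called higher in 3 chemicals and lower in 3. TKT was called lower in 1 chemical and higher in none, and ME1 was called lower in 1 beside its 5 rises. At 25 µM the libraries lay all above the controls in 5 members each under arsenic, copper and lead. They did in 3 each under cadmium and thiram and in 1 each under mercury and BPF. Of all genes the shares were 9.62%, 0.918%, 0.696%, 6.56%, 4.60%, 0.0823% and 0.0404% in that order. All below lay 2 members under arsenic and 1 under cadmium, beside 7.91% and 13.1% of all genes. No such share is given below 25 µM.

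SLC7A11, the cystine carrier, showed the highest fold changes. In the 15 water controls of plate 3153-AT it ranged from 13.3 to 61.9 CPM with a median of 25.4. The 8 lower-numbered controls lay between 13.3 and 25.4 CPM and the 7 higher-numbered ones between 26.1 and 61.9. With arsenic at 25 µM the 4 libraries had 439, 436, 618 and 493 CPM. All 4 were above every control, 18.9-fold by edgeR (log2 4.24 ± 0.23 SE, edgeR adjusted p = 8.78e-30).

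Lead and copper raised SLC7A11 less far. With lead at 25 µM it was at 214, 157, 175 and 162 CPM, again above every control (6.75-fold, log2 2.76 ± 0.24, edgeR adjusted p = 1.3e-15). With copper it was at 149, 135, 127 and 140 CPM, also with no overlap (5.24-fold, log2 2.39 ± 0.25, edgeR adjusted p = 1.09e-12). The copper and lead libraries lay close together, while all arsenic libraries were above both. The 2 cadmium libraries had 80.3 and 40.6 CPM, and only the first was above the controls (log2 1.23 ± 0.82, edgeR adjusted p = 0.503).

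Mercury left SLC7A11 below the threshold, with a split between libraries. At 25 µM libraries 1 and 2 had 36 and 38.8 CPM and libraries 3 and 4 had 85.2 and 74.9. The first pair lay within the range of the controls and the second above it (log2 1.16 ± 0.27, edgeR adjusted p = 0.0648). The same division by library number ran through the controls, and with it as a term in the fit SLC7A11 was called (log2 1.0).

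Thiram raised SLC7A11 on another plate with a lower starting level. The 15 DMSO controls of plate 3284-AT ranged from 9.75 to 35.3 CPM with a median of 16.6, and the 4 thiram libraries at 25 µM had 145, 179, 189 and 160. The groups did not overlap (10.1-fold, log2 3.33 ± 0.26, edgeR adjusted p = 2.29e-21). BPF at 25 µM gave 35.9, 31.7, 34.4 and 22 CPM against controls from 13.2 to 23.9 on plate 3206-AT. Only library 4 lay within the range of the controls (log2 0.73 ± 0.16, edgeR adjusted p = 0.0452), and the call was lost without library 1, 2 or 3 (log2 0.64, 0.73 and 0.69), with DESeq2 (0.69) and with RLE scaling (0.72).

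Solvent also moved with SLC7A11. On plate 3240-AT the 4 water controls had 36.6 to 51.5 CPM and the 12 DMSO controls 15.8 to 42.1, a difference of 0.70 ± 0.17 log2 units (edgeR adjusted p = 0.00413). TKT differed by 0.25 ± 0.07 (edgeR adjusted p = 0.0255). The TKT call was lost without water control 39, 40 or 47 (0.24, 0.26 and 0.23). These were 2 of the 9 members, where 4.08% of all genes were called. PFOA was compared with the water controls because its label gives water as the solvent.

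**Figure D2:**
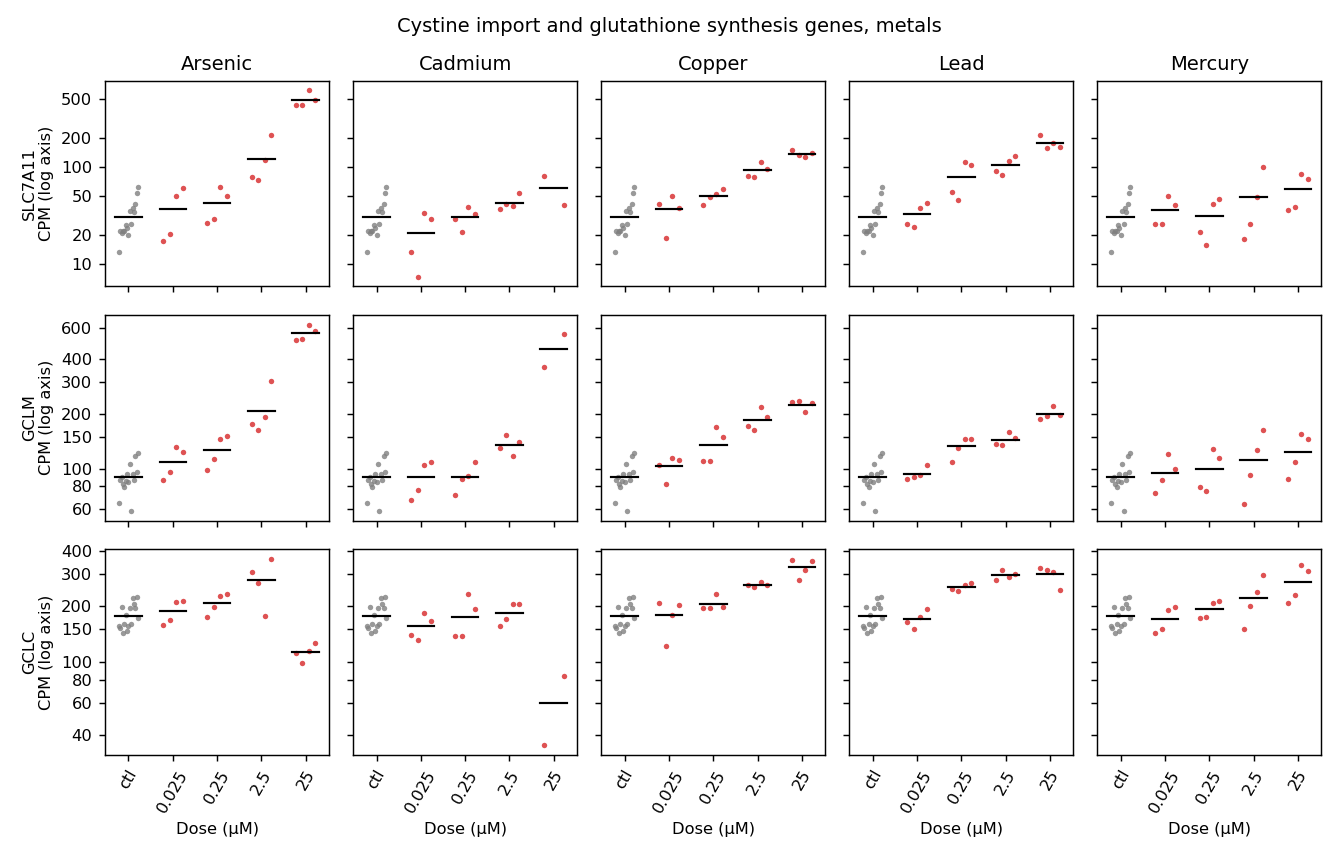
CPM (log axis) of SLC7A11, GCLM and GCLC (rows) in the water controls (ctl, grey) and at each dose in µM (red) of the 5 metals (columns), 1 point per library in the order of library number within a group, with a bar at the mean. SLC7A11 and GCLM are highest at 25 µM arsenic, while GCLC at that dose lies at 98.4 to 126 CPM, under the 143 CPM of the lowest control.

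GCLM, the modifier subunit, rose under arsenic, cadmium, copper, lead and thiram. The water controls ranged from 58.4 to 123 CPM with a median of 86.9. With arsenic at 25 µM GCLM was at 510, 516, 623 and 577 CPM (6.31-fold, log2 2.66 ± 0.13, edgeR adjusted p = 1.33e-33). In the 2 cadmium libraries it was at 364 and 552 CPM (5.17-fold, log2 2.37 ± 0.24, edgeR adjusted p = 6.26e-14). Every tested library of both metals was above every control. The library labelled cadmium but left out of the tests, whose content is uncertain, had GCLM at 35.8 CPM without TMM scaling, below the range of these controls. Without TMM the cadmium value was 1.41 and still called.

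Copper took GCLM to 232, 235, 207 and 229 CPM (2.56-fold, log2 1.36 ± 0.14, edgeR adjusted p = 2.55e-13). Lead took it to 188, 196, 223 and 199 CPM (2.28-fold, log2 1.19 ± 0.14, edgeR adjusted p = 1.85e-10). Neither metal overlapped the controls. With mercury it was at 87.6, 109, 155 and 146 CPM, with libraries 1 and 2 among the controls and 3 and 4 above them (log2 0.49, edgeR adjusted p = 0.436). With thiram it was at 366, 388, 583 and 518 CPM against 79.5 to 143 in the DMSO controls, again with no overlap (4.24-fold, log2 2.08 ± 0.14, edgeR adjusted p = 3.17e-24).

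GCLC, the catalytic subunit, went down where GCLM went up furthest. The water controls ranged from 143 to 224 CPM with a median of 174. With arsenic at 25 µM GCLC was at 112, 98.4, 115 and 126 CPM. All 4 were below every control, 1.55-fold lower (log2 −0.63 ± 0.14, edgeR adjusted p = 7.65e-05). The 2 cadmium libraries were also below all controls, as in 13.1% of all genes, at 35.2 and 84 CPM (log2 −1.59 ± 0.36, edgeR adjusted p = 0.000723). That call was lost without library 1 (log2 −1.06) and with the library of the other barcode added (log2 −0.66, edgeR adjusted p = 0.0536), and it held without TMM (log2 −2.55).

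Under copper and lead GCLC rose. With copper at 25 µM it was at 357, 277, 315 and 355 CPM, above every control (1.86-fold, log2 0.89 ± 0.12, edgeR adjusted p = 2.7e-08). With lead it was at 325, 317, 307 and 246 CPM, likewise with no overlap (1.70-fold, log2 0.77 ± 0.12, edgeR adjusted p = 4.77e-06). With mercury it was at 208, 231, 337 and 310 CPM, where only library 1 overlapped the controls (1.55-fold, log2 0.63 ± 0.12, edgeR adjusted p = 0.00555). The mercury call was lost without library 3 (log2 0.50) or library 4 (0.57).

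Thiram split GCLC by library number. Libraries 1 to 4 had 171, 152, 84.7 and 74.9 CPM, against 142 to 209 in the DMSO controls with a median of 175. Libraries 1 and 2 lay within the range of the controls and libraries 3 and 4 far below it. Over all 4 the fold change was −0.52 ± 0.15 on the log2 scale (edgeR adjusted p = 0.00549). Within libraries 1 and 2 and the lower-numbered controls it was −0.20 and not called, and within libraries 3 and 4 and the higher-numbered controls it was −1.12 and called. The 4 libraries held 6.29, 5.70, 5.33 and 2.46 M reads in that order, and the part of depth in the split was not tested.

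GSS, which finishes glutathione, was called in 1 group. In the water controls it ranged from 90.6 to 145 CPM, and with arsenic at 25 µM it was at 165, 128, 153 and 127. Libraries 1 and 3 were above the controls and 2 and 4 among them (log2 0.26 ± 0.11, edgeR adjusted p = 0.0362), and the call was lost without library 1 (0.19) or library 3 (0.25). In the other 83 of 84 dosed groups GSS was not called, with log2 fold changes from −0.25 to 0.15. The cadmium libraries were far apart, at 162 and 32.2 CPM, and without TMM GSS was called lower there (log2 −1.19, edgeR adjusted p = 3.82e-05).

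GSR, the reductase that recycles glutathione, rose moderately in arsenic, copper and thiram. The water controls ranged from 38.1 to 68.6 CPM, with the lower-numbered ones at 38.1 to 47.1 and the higher-numbered ones at 54.5 to 68.6. With arsenic GSR was at 75.4, 60.7, 75.7 and 85.2 CPM, with library 2 among the controls (log2 0.58 ± 0.15, edgeR adjusted p = 0.000662). With copper it was at 52.7, 63, 76.4 and 82.9 CPM, with libraries 1 and 2 among the controls (log2 0.45 ± 0.14, edgeR adjusted p = 0.0399). The copper call was lost without library 2, 3 or 4 (log2 0.49, 0.40 and 0.38), with RLE scaling (0.43) and with DESeq2 (0.37).

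Thiram gave GSR at 80.1, 92.7, 61.2 and 54.2 CPM against 32.6 to 74.6 in the DMSO controls, so libraries 3 and 4 overlapped (log2 0.67 ± 0.15, edgeR adjusted p = 0.000211). Within libraries 3 and 4 it was not called (log2 0.29). Lead left GSR below the threshold (log2 0.41, edgeR adjusted p = 0.0877). In the other 81 of 84 groups, at all doses, GSR was not called, with log2 fold changes from −0.29 to 0.47.

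PGD, the NADPH-forming dehydrogenase, was called higher in all 5 metals with TMM, and in cadmium its direction turned without it. The water controls ranged from 333 to 465 CPM with a median of 422. With lead at 25 µM PGD was at 731, 773, 638 and 650 CPM (1.71-fold, log2 0.78 ± 0.08, edgeR adjusted p = 6.72e-13). With arsenic it was at 627, 553, 667 and 606 CPM (1.51-fold, log2 0.59 ± 0.08, edgeR adjusted p = 5.53e-10). With copper it was at 621, 664, 562 and 560 CPM (1.48-fold, log2 0.56 ± 0.08, edgeR adjusted p = 7.01e-08). No library of the 3 metals overlapped the controls.

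Cadmium gave PGD at 648 and 484 CPM, also above all controls (log2 0.48 ± 0.13, edgeR adjusted p = 0.00671), and the call was lost without library 1 (0.26). Without TMM PGD was called lower in cadmium (log2 −0.47, edgeR adjusted p = 0.000804). Mercury gave it at 512, 520, 541 and 545 CPM, a narrow group above every control (log2 0.38 ± 0.08, edgeR adjusted p = 0.018). The mercury call was lost without any 1 of its libraries, with log2 fold changes from 0.37 to 0.39. Thiram left PGD below the threshold at log2 0.17 (edgeR adjusted p = 0.144).

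TALDO1, the transaldolase of the non-oxidative branch, was called higher in 6 chemicals, at small fold changes. The water controls ranged from 172 to 275 CPM, the lower-numbered ones at 232 to 275 and the higher-numbered ones at 172 to 215. Arsenic gave 371, 360, 384 and 377 CPM and cadmium 413 and 476, all above the controls (log2 0.70 ± 0.08 with edgeR adjusted p = 3.7e-12, and 0.95 ± 0.14 with edgeR adjusted p = 9.96e-08). Without TMM the cadmium value was −0.0010 and not called. Lead gave 338, 339, 267 and 299 CPM, with library 3 among the controls (log2 0.44 ± 0.08, edgeR adjusted p = 0.000152). Copper gave 312, 321, 245 and 272, with libraries 3 and 4 among them (log2 0.33 ± 0.08, edgeR adjusted p = 0.00669), and the call was lost without library 1 (0.28) or 2 (0.26).

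With thiram TALDO1 was at 315, 275, 264 and 292 CPM against 167 to 284 in the DMSO controls. The groups overlapped (log2 0.27 ± 0.09, edgeR adjusted p = 0.0171), and the call was lost without library 1 (0.19) or 4 (0.24). With DDE at 25 µM it was at 187, 228, 201 and 207 CPM (log2 0.35 ± 0.11). Its edgeR adjusted p, 0.04999, was just under the threshold, and the call was lost without any 1 library.

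TKT, the transketolase beside it, was called in 1 group only. With arsenic at 25 µM it was at 1227, 1124, 1227 and 1262 CPM against 1603 to 2277 in the water controls. All 4 libraries were below every control, 1.66-fold lower (log2 −0.73 ± 0.08, edgeR adjusted p = 8.83e-13). In the other 83 groups TKT was not called, with log2 fold changes from −0.25 to 0.22. The 2 cadmium libraries stood at 1837 and 1838 CPM, and there its log2 fold change was −0.13 with TMM, 0.04 with RLE scaling and −1.09 without either, when it was called lower (edgeR adjusted p = 8.41e-17).

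ME1, the malic enzyme, rose steeply in arsenic. The water controls ranged from 84.7 to 127 CPM, and arsenic gave 313, 270, 343 and 374. There was no overlap (3.33-fold, log2 1.74 ± 0.09, edgeR adjusted p = 4.08e-31). Lead gave 130, 156, 153 and 154 CPM (log2 0.60 ± 0.10, edgeR adjusted p = 6.42e-06) and copper 130, 138, 131 and 135 (log2 0.45 ± 0.10, edgeR adjusted p = 0.000901), all just above the controls. Thiram gave 126, 153, 140 and 156 CPM against 62.3 to 99, with no overlap (1.77-fold, log2 0.82 ± 0.13, edgeR adjusted p = 6.41e-08).

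Cadmium gave ME1 at 266 and 101 CPM, so library 2 lay among the controls (log2 0.93 ± 0.21, edgeR adjusted p = 0.000531). Without library 1 the log2 fold change was 0.05 and not called, and without TMM it was −0.0037 and not called. Under DDE ME1 was at 122, 87.0, 80.2 and 76.0 CPM, called lower (log2 −0.99 ± 0.25, edgeR adjusted p = 0.0287), and the call was lost without library 2 (−0.97) or library 3 (−0.94).

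**Figure D3:**
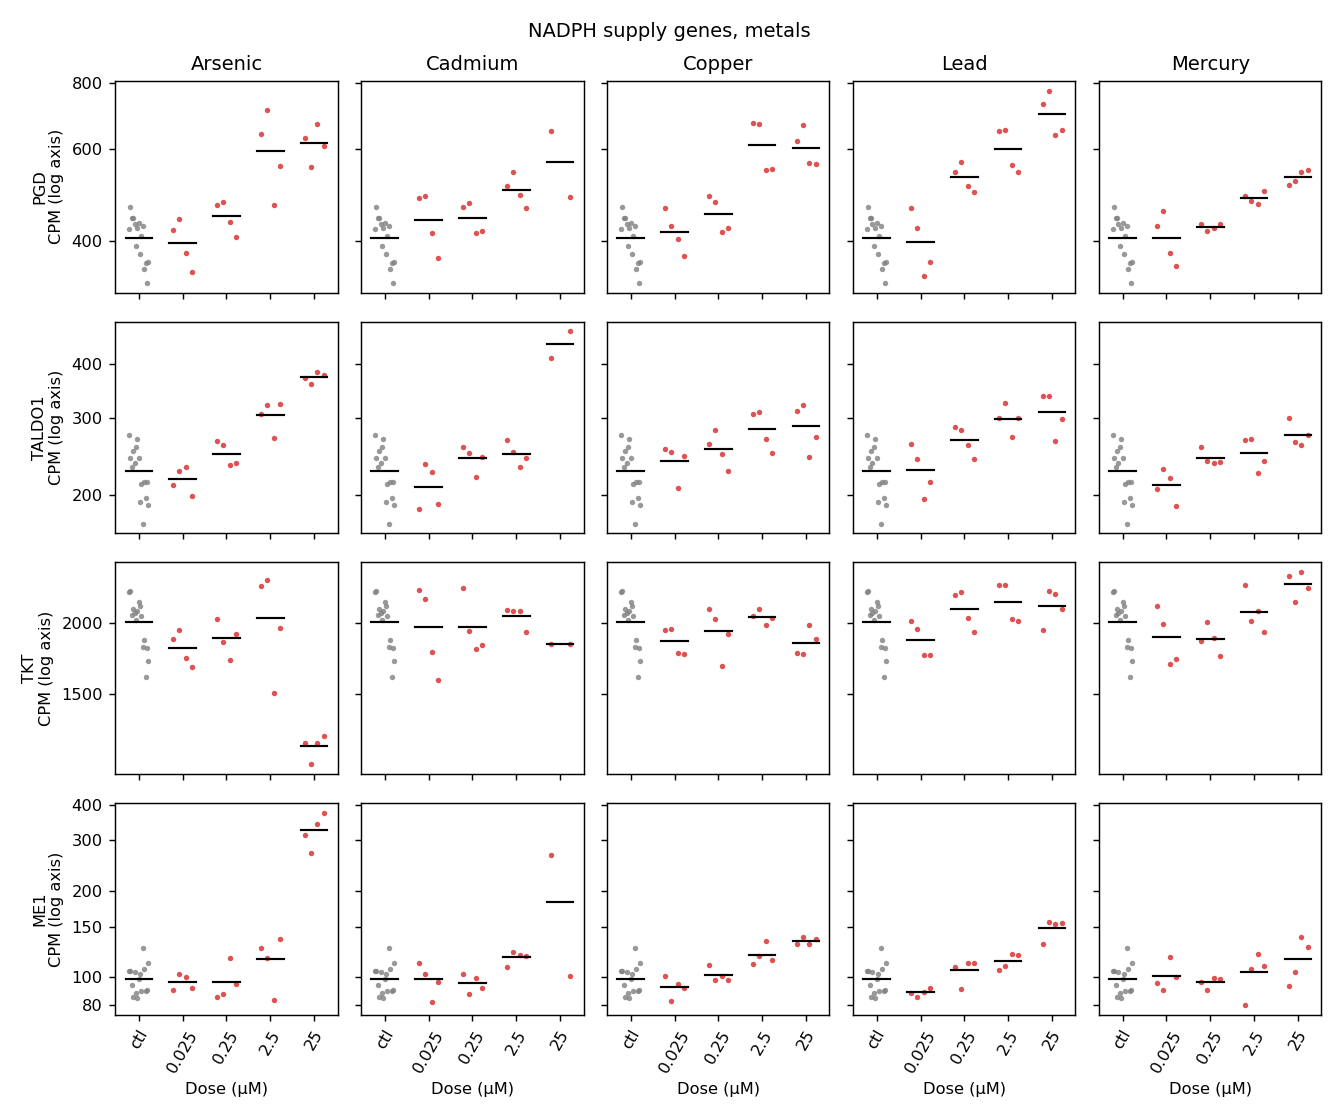
CPM (log axis) of PGD, TALDO1, TKT and ME1 (rows) in the water controls (ctl, grey) and at each dose in µM (red) of the 5 metals (columns), 1 point per library in the order of library number within a group, with a bar at the mean. ME1 at 25 µM arsenic lies at 270 to 374 CPM against 84.7 to 127 in the controls, and TKT at that dose lies below them.

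The scaling of the libraries shifted some of these values. Taken over all genes, the median log2 fold change with arsenic was higher under RLE scaling by 0.14 against TMM, for cadmium by 0.16 and for thiram by 0.089. With TMM the median of the genes at 50 CPM or more was −0.29 for arsenic, −0.24 for cadmium and −0.20 for thiram. GCLC and TKT under arsenic, at −0.63 and −0.73, were below that median. For cadmium the median over all genes tested was −1.42 with TMM.

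A ratio of genes within a library depends on the scaling only through what is added to each gene. The log2 ratio of GCLM to GCLC, with 1 CPM added to each, averaged −0.99 ± 0.27 (SD, n = 15) in the water controls. With arsenic at 25 µM it lay between 2.17 and 2.43 in the 4 libraries, 3.28 units higher on average. A two-sided exact permutation test over libraries gave p = 0.000258, the smallest this design allows (adjusted p = 0.00271 over 21 chemicals). With cadmium the ratio was 3.34 and 2.70, 4.00 units higher (exact permutation p = 0.00735, the smallest allowed, adjusted p = 0.0386). The 15 water controls lay between −1.44 and −0.50, and the 8 water controls that share the plate barcode of DDE between −0.39 and 1.15.

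With thiram the ratio ranged from 1.09 to 2.77 against −1.32 to −0.04 in its DMSO controls, 2.72 units higher (exact permutation p = 0.000258, adjusted p = 0.00271). Copper and lead moved it little, by 0.46 (adjusted p = 0.0325) and 0.42 (adjusted p = 0.0423) by the same exact permutation test. Lead did not pass when permuted within low and high library numbers, with the lower- or the higher-numbered controls only, or without library 2, 3 or 4 (adjusted p = 0.0519 to 0.191). Copper did not pass with the higher-numbered controls only (0.113) or without library 2 (0.174). Cadmium did not pass in any of these 3 control settings or without library 1 or 2 (0.0778 to 0.233), where the smallest p the design allows without 1 library is 0.0625. Mercury did not pass (−0.14, adjusted p = 0.591), and neither did the other 15 chemicals.

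The log2 ratio of SLC7A11 to GCLC rose in the same 5 chemicals: by 4.71 with arsenic, 3.76 with thiram, 2.66 with cadmium, 1.84 with lead and 1.36 with copper. The exact permutation test gave adjusted p = 0.0309 for cadmium and 0.00135 for each of the others.

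**Figure D4:**
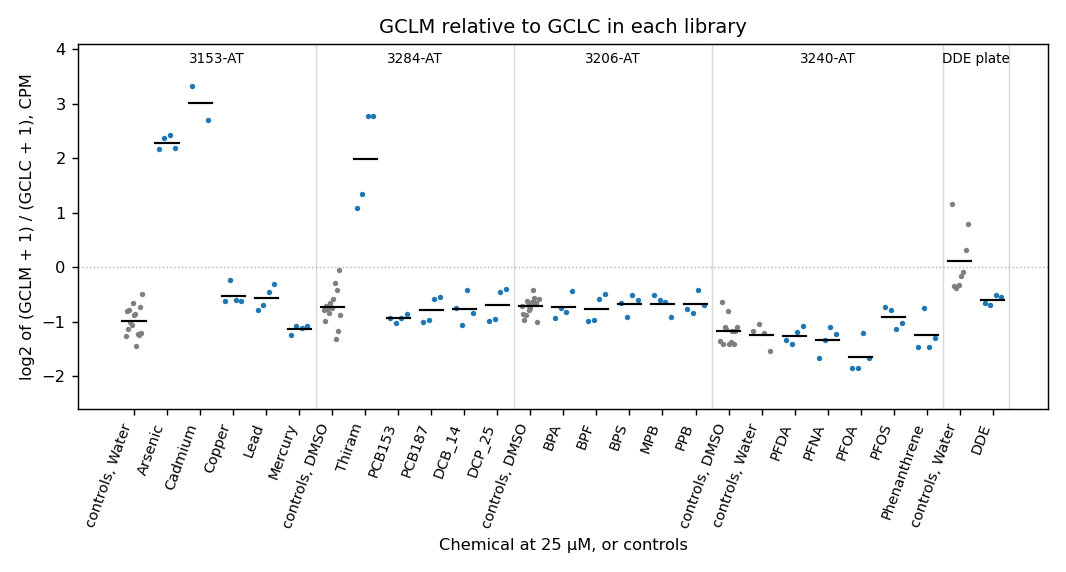
log2 of (GCLM + 1) over (GCLC + 1) in CPM for each library at 25 µM (blue) and each control (grey), by chemical and plate, with a bar at the mean. Arsenic, cadmium and thiram lie above 1, and the controls of their plates lie below 0.

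Below 25 µM the calls lay in metals and in PCB153. At 2.5 µM 16 of 189 pairs were called, all higher: 5 each in arsenic, copper and lead and 1 in cadmium. The share of all genes called was 1.96% in arsenic, 3% in copper, 0.613% in lead and 0.235% in cadmium, and 0% to 0.915% in the 17 chemicals with no member called. In arsenic, copper and lead the 5 called members were SLC7A11, GCLC, GCLM, PGD and TALDO1.

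GCLC under arsenic at 2.5 µM was higher, not lower. Its libraries were at 308, 269, 178 and 363 CPM (log2 0.68 ± 0.12, edgeR adjusted p = 0.000137), and library 3 lay among the controls. The 4 libraries at 25 µM, from 98.4 to 126 CPM, were below all 4 of these. SLC7A11 in the same 2.5 µM libraries was at 78.7, 74.3, 118 and 214 CPM, all above the controls (4.57-fold, log2 2.19).

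Copper at 2.5 µM gave SLC7A11 at 80.1, 79.2, 114 and 96.4 CPM (log2 1.82) and lead 91.1, 83.1, 116 and 129 (log2 1.99), and neither overlapped the controls. GCLM rose by 1.25 log2 units in arsenic, 1.08 in copper and 0.72 in lead. In cadmium it was at 130, 153, 118 and 140 CPM, with library 3 among the controls (log2 0.62, edgeR adjusted p = 0.0256), and it was the only member called there.

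At 0.25 µM 6 pairs were called, all higher. Lead held 3 of them (0.123% of genes called): SLC7A11 at 54.8, 45.4, 113 and 106 CPM (log2 1.61, edgeR adjusted p = 8.93e-05), GCLC at 249, 242, 260 and 269 (log2 0.54, edgeR adjusted p = 0.0379) and PGD at 542, 566, 510 and 497 (log2 0.38, edgeR adjusted p = 0.019). All GCLC and PGD libraries were above the controls, while SLC7A11 libraries 1 and 2 were among them. The GCLC and PGD calls were lost without any 1 library. Copper held 1 call, GCLM at 111, 110, 169 and 150 CPM (log2 0.62, edgeR adjusted p = 0.0314, 0.156% of genes called), where libraries 1 and 2 lay among the controls.

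The other 2 calls at 0.25 µM were in PCB153 (0.333% of genes called) and rested on 1 library. SLC7A11 was at 19.4, 18.9, 182 and 18.2 CPM and GCLM at 90.2, 101, 383 and 126. Library 3 stood far above the others in both genes. It also had PGD at 754 CPM against 359 to 408 and ME1 at 157 against 73.8 to 89.5, with neither gene called. GSS and TKT in library 3 lay within the range of the others. Without library 3 the log2 fold changes went from 1.82 to 0.17 for SLC7A11 and from 0.69 to −0.031 for GCLM, and both calls were lost.

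At 0.025 µM edgeR called 0 of 189 pairs, with log2 fold changes from −0.84 to 0.52. Of these 11 had an unadjusted p under 0.05, and DESeq2 called 0. The share of all genes called at that dose was 0% to 0.13%.

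**Figure D5:**
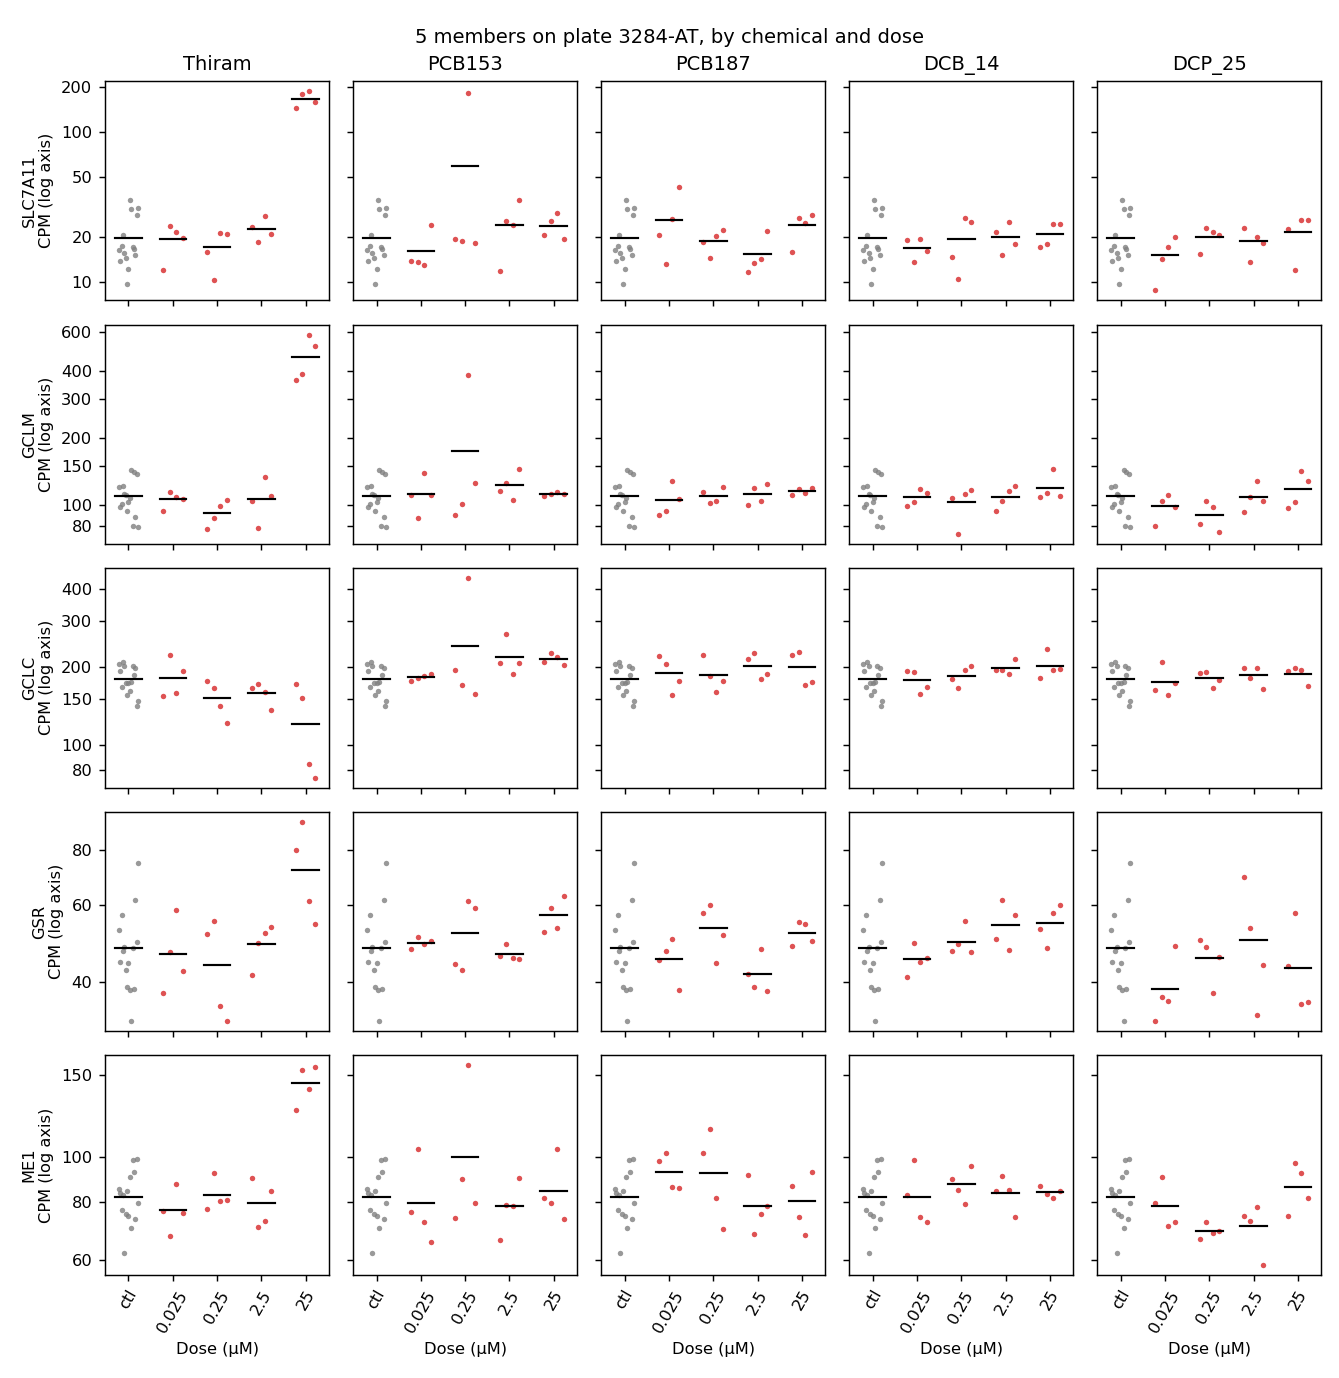
CPM (log axis) of SLC7A11, GCLM, GCLC, GSR and ME1 (rows) in the DMSO controls (ctl, grey) and at each dose in µM (red) of thiram, PCB153, PCB187, DCB_14 and DCP_25 (columns), 1 point per library in the order of library number within a group, with a bar at the mean. Thiram departs from the controls at 25 µM, and a single library of PCB153 at 0.25 µM stands apart, with 182 CPM of SLC7A11.

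A trend over the 4 doses, without the controls, was called in 30 of 189 tests, 26 upward and 4 downward. Slopes are in log2 units per 10-fold dose. Arsenic held 8 of them (29.7% of genes called): SLC7A11 1.27, GCLM 0.78, ME1 0.56, TALDO1 0.26, GSR 0.25 and PGD 0.23 upward, and GCLC −0.18 and TKT −0.16 downward. Neither fall was graded: GCLC means under arsenic went from 188 CPM at 0.025 µM to 280 at 2.5 µM and 113 at 25 µM. TKT means went from 1803 to 2041 and 1210 CPM at the same doses. Copper held 6 (1.71%): SLC7A11 0.65, GCLM 0.38, GCLC 0.29, GSR 0.22, PGD 0.20 and ME1 0.18. Lead held 6 (0.868%): SLC7A11 0.77, GCLM 0.34, GCLC 0.26, PGD 0.26, ME1 0.23 and TALDO1 0.15. Every copper and lead slope called was upward, including that of GCLC.

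Thiram held 6 trends (18.5%): SLC7A11 0.97, GCLM 0.66, ME1 0.26, GSR 0.21 and TALDO1 0.10 upward and GCLC −0.15 downward. No member was called under thiram below 25 µM, so these slopes do not show a graded change. From the lowest dose to the highest, ME1 means were 76.8, 82.7, 79.5 and 144 CPM. Those of GSR were 46.4, 43.6, 48.9 and 72.1 CPM. Leaving out the libraries of 1 number gave 3 to 5 thiram trends. Cadmium held 4 (8.96%), with GCLM 0.76, TALDO1 0.33 and ME1 0.31 upward and GCLC −0.42 downward. With the library of the other barcode added, 2 of these remained called, GCLM and TALDO1. Without TMM cadmium had 1 trend upward, GCLM (0.46), and 4 downward, with TALDO1 (0.041) and ME1 (0.032) not called. With TMM the cadmium mean of GCLC was 156 CPM at 0.025 µM, 185 at 2.5 µM and 59.6 at 25 µM. Mercury held 0 (0.0494%) by edgeR, and the 16 chemicals without a call had 17 of 144 tests at an unadjusted p under 0.05 and 2 by DESeq2, both in mercury. The replicate numbers pair the libraries in mercury and lead, and with them as a block mercury had 6 upward trends, SLC7A11 0.27, GCLC 0.22, GSR 0.20, PGD 0.14, TALDO1 0.12 and TKT 0.11. In lead the replicate block added GSR (0.14, edgeR adjusted p = 0.0304). No share of all genes called with the block is given for either metal.

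The metals were also compared with each other at 25 µM, and 37 of 162 member tests over all 18 pairs of chemicals were called. Arsenic against copper differed in 6 members (32.5% of genes called), arsenic against lead in 6 (33.1%) and arsenic against mercury in 6 (34.4%). In all 3 SLC7A11, GCLM, TALDO1 and ME1 were higher and GCLC and TKT lower under arsenic. GCLC was lower than under copper by 1.53 log2 units (log2 −1.53, 95% interval −1.85 to −1.20, edgeR adjusted p = 3.64e-13). It was lower than under lead by the same measure at −1.40 (−1.72 to −1.08) and than under mercury at −1.26 (−1.59 to −0.94).

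Cadmium against copper, lead and mercury differed in 3, 3 and 4 members (9.29%, 8.94% and 9.99% of genes). GCLC was lower under cadmium in each, by log2 −2.48, −2.35 and −2.22, and GCLM and TALDO1 were higher. Without TMM GCLC stayed lower (−3.45, −3.27 and −3.16), GCLM was called against mercury only (0.92; 0.043 and 0.25 against copper and lead), and the sign of TALDO1 turned (−0.33, −0.40 and −0.24). Arsenic and cadmium differed in 3 members (8.56%): SLC7A11 was higher under arsenic by 3.02, ME1 by 0.80, and TKT was lower (−0.60). Without TMM all 9 members were called higher under arsenic, TKT by 0.38. Dropping TMM lowers every gene of the cadmium libraries together, and no share of all genes called without TMM is given. With TMM GCLM and GCLC were not called between arsenic and cadmium, with intervals of −0.21 to 0.79 and 0.19 to 1.72.

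Copper and lead were not separated by any member. EdgeR called 0 of 9 (0.827% of genes), 2 had an unadjusted p under 0.05, and DESeq2 called 0. For SLC7A11 the difference was −0.36 with an interval of −0.96 to 0.23. Against mercury copper was higher in SLC7A11 (1.23) and GCLM (0.86) and lower in TKT (−0.34), 3 members where 1.51% of genes were called. All 3 calls were lost without library number 1 or 2, and that of TKT also without 3 or 4. Lead was higher than mercury in SLC7A11 (1.60), GCLM (0.70) and PGD (0.40), 3 members where 0.416% were called. Without library number 1 none of these 3 was called, and without number 2, 3 or 4, or with both groups fitted alone, only SLC7A11 was. With the replicate block, which pairs lead and mercury libraries by number, 4 members were called, with no share of all genes given for that fit.

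Related chemicals that share a plate were compared in 8 pairs at 25 µM. Beside the bisphenols, PCB153 and PCB187 are polychlorinated biphenyls, and PFDA, PFNA and PFOS are perfluorinated acids, the first pair carboxylic and PFOS sulfonic. MPB and PPB are known here by their labels only. EdgeR called 0 of 72 member tests, with log2 differences from −0.54 to 0.41. Of these 9 had an unadjusted p under 0.05, and DESeq2 called 0. The share of all genes called was 0% for BPA against BPF, BPA against BPS, BPF against BPS, MPB against PPB, PFNA against PFOS and PCB153 against PCB187, 0.00514% for PFDA against PFNA and 0.0308% for PFDA against PFOS.

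The widest difference was that of SLC7A11 between BPA and BPF, −0.54 with a 95% interval of −0.93 to −0.15 (unadjusted p = 0.00742, edgeR adjusted p = 0.999). For MPB against PPB the interval of SLC7A11 was −0.22 to 0.69, for PFNA against PFOS −0.42 to 0.45, for PFDA against PFNA −0.59 to 0.25 and for PCB153 against PCB187 −0.74 to 0.64.

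DDE lowered ME1 against controls whose own levels were split by library number. The 2 controls numbered 9 and 16 had ME1 at 270 to 320 CPM and SLC7A11 at 139 to 179, while the 6 others had 119 to 182 and 56.2 to 143. GCLC in these 2 was at 81.1 to 99.9 CPM against 147 to 183 in the others, and GSR at 15.7 to 31.6 against 36.8 to 66.9. Dosed libraries numbered 1, 8, 9 and 16, at whichever dose, had SLC7A11 at 99.4 to 130 CPM against 26 to 55.1 in the 12 others. Without these numbers 5 members were called, SLC7A11 (log2 −1.23), ME1 (−0.85), GCLM (−0.40) and PGD (−0.33) lower and TALDO1 (0.30) higher. No share of all genes called is given for that fit. What the numbers stand for was not tested.

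Genes around the pathway were read from a pair of lists. Of 36 genes of glutathione use and amino acid supply 35 passed the filter on plate 3153-AT, and arsenic at 25 µM raised 13 and lowered 9, that is 37.1% and 25.7% against 23.2% and 18.2% of all genes. Copper raised 7 and lowered 0 (20% against 2.88% higher), and lead raised 5 and lowered 0 (14.3% against 2.15%). Cadmium raised 3 and lowered 2 (8.57% and 5.71%), near its 5.67% and 5.38% of all genes. Thiram raised 6 and lowered 8 of 35 (17.1% and 22.9% against 13.7% and 12.2%). The medians over the list were 0.04 in arsenic and −0.20 in thiram on the log2 scale, against 0.59 and 0.27 over the 9 members. The medians over all genes were 0.0014 and −0.11.

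CHAC1, which degrades glutathione and is known as an ATF4 target, went from 1.40 CPM in the water controls to 231 with arsenic (log2 7.33 ± 0.18, edgeR adjusted p = 9.49e-65) and to 62.9 with cadmium (5.45). It was higher by 5.94 with thiram and by 1.32 with copper. SLC1A4, a carrier of neutral amino acids, was higher by 5.36 with arsenic, 2.17 with thiram, 1.44 with copper and 1.28 with lead. CTH, which makes cysteine from cystathionine, was higher by 3.95 with arsenic and 3.31 with thiram. GGT1, the gamma-glutamyltransferase, was higher with arsenic by 6.61, from 0.143 to 12.2 CPM.

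Lead and copper raised further genes of the list. ABCC2, an exporter of glutathione conjugates, was higher by 0.92 and 1.05 with lead and copper. MGST1 (0.47) and SLC3A2 (0.46), the partner of SLC7A11, were higher with lead, and GLRX (1.0) with copper. Arsenic also raised ABCC2 (1.203), SLC3A2 (0.69) and GLRX (1.01), and thiram SLC3A2 (0.28). In cadmium GSTO1 was higher by 1.62 with TMM, where its summed counts over library totals were 312 CPM against 209, and GGCT (−1.96) and ESD (−1.26) were lower. In thiram GSTA4 was lower (−1.43).

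Of 26 other genes of NADPH supply, the pentose phosphate pathway and folate metabolism, arsenic raised 7 and lowered 14 (26.9% and 53.8%, against the 23.2% and 18.2% of all genes). Cadmium raised 0 and lowered 5 (0% and 19.2%, against 5.67% and 5.38% of all genes). Copper raised 2 and lowered 2 (7.69% each, against 2.88% and 2.21%). Lead raised 1 and lowered 1 (3.85% each, against 2.15% and 1.70%). Thiram raised 1 and lowered 11 of 25 (4% and 44%, against 13.7% and 12.2%). So the members PGD, TALDO1 and ME1 were called higher under arsenic while the larger share of this list was called lower. SHMT1, serine hydroxymethyltransferase, was lower with arsenic (−2.55), cadmium (−1.46), thiram (−1.32), copper (−0.54) and lead (−0.38). MTHFD1, a folate enzyme, was lower with arsenic (−2.31) and thiram (−0.91).

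IDH1, the cytosolic isocitrate dehydrogenase, was lower with copper (−0.86), where MTHFD2L was higher (0.61). Thiram raised MTHFD2 (1.14) and lowered IDH2 (−0.80). In cadmium NADK2 (−3.33) and PRPS1 (−2.29) were lower. RPIA had 0 counts in both cadmium libraries, which makes it at least 18.02-fold lower on TMM-scaled sizes with the limit of 3 counts over the group, and at least 8.52-fold or 9.50-fold with 1 library left out. TKTL1, a relative of TKT, had 0 counts in all 15 water controls and 0, 10, 20 and 2 counts in the arsenic libraries. That is at least 52.4-fold higher by the same limit, and at least 24.7-fold without library 3. ME3 was higher with arsenic by 2.52 at under 2 CPM, with 44, 0, 9 and 23 counts in the 4 libraries.

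Across the 84 dosed groups, the profiles of the members were compared as group means of log2(CPM + 1) less the mean of the dosed groups of the plate. The points share plates, controls and scaling, so the correlations are a description. GCLM ran with ME1 (r = 0.85) and SLC7A11 (0.80), and SLC7A11 with ME1 (0.80). GCLC ran with GSS (0.54) and TKT (0.50) and against GCLM (−0.39).

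Among 13839 genes tested on all plates, the 10 closest to the mean of the 9 members were PTGR1 (0.89), TRIM16L (0.88), TXNRD1 (0.88), NMRAL2P (0.84), UGDH (0.84), HTATIP2 (0.84), FTL (0.82), AKR1C1 (0.82), ALAS1 (0.82) and NQO1 (0.82). The gene most like each member was NMRAL2P for SLC7A11 (0.85), EIF3B for GCLC (0.85), CYP4F11 for GCLM (0.95), TMEM127 for GSS (0.80), EPHX1 for GSR (0.72), NQO1 for PGD (0.87), TXN for TALDO1 (0.89), ALDH3A1 for TKT (0.79) and SQSTM1 for ME1 (0.89). TXNRD1 and TXN belong to the thioredoxin system, which also draws on NADPH.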

How the data were processed

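Whole-number read counts per gene symbol were deposited by the authors, 1 table per library, not normalized, since the totals differ between libraries. Per the submitters' processing notes the tools included STAR and featureCounts with build GRCh38; no source used here gives the annotation or strand setting. Members and lists were chosen with earlier results of these data known. Libraries were grouped by label, and plates by plate barcode. Each plate was fitted alone with edgeR 4.0.16 (quasi-likelihood F-test, all groups in 1 fit, filterByExpr with minimum count 10 and total 15, TMM, dispersion from the 5% most abundant genes) in R 4.3.3 with limma 3.58.1. P-values were adjusted by Benjamini-Hochberg over all genes of a comparison, 13921 (DDE plate), 24295 (3153-AT), 22301 (3206-AT), 19468 (3240-AT) and 21307 (3284-AT). Intervals are 95% normal intervals from the SE. DESeq2 1.42.0, RLE scaling, library totals without TMM (chosen after seeing the data), a weaker filter (total of at least 10), fits within low or high library numbers, left-out libraries and a replicate block were alternatives. By correlation of deviations from group means over genes, same-numbered libraries paired only in lead (lowest r 0.129, 24 pairs) and mercury (0.117), above the minimum of 0.1. The test was tried on simulated data.

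Named genes were all 9 members and, from each neighbour list in arsenic, cadmium, copper, lead, mercury and thiram at 25 µM, the 4 called genes with the largest log2 fold change. No molecular identifiers are mentioned, so counts are reads. The values of 1 gene on the list of other NADPH genes are not reported here.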

Additional observations from a re-analysis of the deposited data

Results flagged for a closer look

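Outliers were sought in 198 sets, each set being 1 member in 1 group of 4 to 10 libraries. The groups searched were controls and groups dosed at 25 µM. Groups at lower doses were not searched, so the PCB153 library that stood apart at a lower dose could not be flagged. In 6 of the 198 sets (3.03%) a library was far from the rest for the range of the group, where chance gives about 5%. The sets share libraries, so they are not independent. With DDE at 25 µM library 1 had SLC7A11 at 103.8 CPM against 37.5 to 41.3 in the other libraries and GSR at 75.5 against 55.5 to 58.7. Library 1 of lead at 25 µM had ME1 at 130.03 CPM against 153 to 156. Library 3 of DCB_14 at 25 µM had GCLM at 145 CPM against 108 to 113. Library 1 of PCB153 at 25 µM had TKT at 1787 CPM against 1565 to 1598. Water control 40 of plate 3240-AT had GCLC at 202 CPM against 254 to 260. The cause was tested for none of them.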

How the results depend on the processing

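Depth limits cadmium at 25 µM most, with 2 libraries under 1.5 M reads, and the higher-numbered controls of plates 3153-AT and 3284-AT. Counts of called members that moved by over 1.5 times follow, and where no construction is named the cause was not tested. For the alternatives no share of all genes called is given, so the counts cannot be set against such a share. With DDE at 25 µM, 2 in the main analysis, RLE scaling, library totals without TMM, the weaker filter and a fit of its groups alone each gave 1, and leaving out numbers 1, 8, 9 and 16 gave 5, with 3 pairs called at 0.025 µM. Adding the library of the other barcode to cadmium gave 3 at 25 µM and, in an alternative chosen after seeing the data, 2 trends. For mercury, a term for library number (1 and 2 with the lower-numbered controls against 3 and 4 with the higher-numbered ones) gave 6 at 25 µM, libraries 1 and 2 with their controls gave 1 and libraries 3 and 4 gave 6. Library totals without TMM gave it 1. Its trends numbered 2 with DESeq2, 5 with the number term and 6 with the replicate block. For BPF, DESeq2 and RLE gave 0, and the weaker filter, the number term and libraries 1 and 2 alone gave 2 each. For MPB the number term gave 1, libraries 1 and 2 alone 2 and the weaker filter 1 trend. DESeq2 gave 5 differences for arsenic against cadmium, 5 for cadmium against lead and 4 for lower- against higher-numbered controls of plate 3153-AT, and the weaker filter gave 1 for those of 3284-AT. Lead against mercury fitted alone gave 1. Library totals without TMM, chosen after seeing the data, gave 9 differences for arsenic against cadmium, 5 for cadmium against copper and 6 against lead. They turned these cadmium values: PGD (−0.47), TALDO1 (−0.0010) and ME1 (−0.0037) against controls, TKT of arsenic against cadmium (0.38), TALDO1 of cadmium against copper (−0.33), lead (−0.40) and mercury (−0.24), and ME1 of cadmium against mercury (−0.24). At 0.25 µM the number term gave 11 pairs and libraries 3 and 4 alone 11. The GCLM to GCLC ratio passed in 3 chemicals when permuted within low and high numbers, in 3 with the lower-numbered controls only and in 2 with the higher-numbered ones, and the SLC7A11 to GCLC ratio in 8 with the lower-numbered controls.

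Leaving out the dosed libraries of 1 number at a time gave these ranges. No share of all genes called is given for them or for the replicate block, so the counts cannot be set against one. At 25 µM arsenic had 8 to 9 members called, cadmium 3 to 5, copper 5 to 6, lead 6 to 7, thiram 5 to 6, mercury 0 to 2, DDE 0 to 2, BPF 0 to 1, MPB 0 to 1 and each other chemical 0 to 0. Pairs called were 13 to 17 at 2.5 µM, 2 to 9 at 0.25 µM and 0 to 2 at 0.025 µM. Trends were 7 to 8 in arsenic, 3 to 5 in cadmium, 4 to 6 in copper, 4 to 6 in lead, 3 to 5 in thiram and 0 to 0 elsewhere. Differences were 1 to 4 for arsenic against cadmium, 6 to 6 against copper, 5 to 6 against lead and 6 to 6 against mercury, 2 to 4 for cadmium against copper, 2 to 3 against lead and 3 to 4 against mercury, 0 to 2 for copper against mercury, 0 to 1 for lead against mercury and 0 to 0 in the other pairs. Lower- against higher-numbered controls of plate 3153-AT gave 2 to 3, the solvents 1 to 2 when 1 water control was left out, the GCLM to GCLC ratio 2 to 4 chemicals and the SLC7A11 to GCLC ratio 4 to 5. Some directions turned: GCLM with PCB153 at 0.25 µM (−0.031 without replicate 3 to 0.90 without replicate 1, and −0.15 within replicates 1 and 2), and ME1 of cadmium against mercury (−0.28 without replicate 1 to 1.15 without replicate 2). Of 67 called trends and differences, the replicate block lost 2, TALDO1 of cadmium against lead (log2 0.44) and ME1 of cadmium against mercury (0.76). It gave 9 trends in arsenic, 7 in copper, 7 in lead, 7 differences for arsenic against mercury and 4 for lead against mercury. By the minimum r of 0.1 the numbers pair the libraries in lead and mercury only. Copper (lowest r 0.0644, median 0.118) and PFOA (lowest r 0.0735, median 0.106) fell under that minimum with every same-numbered pair above 0. Controls carry other numbers, so against controls the term for low and high library numbers was fitted in place of the block. A pseudocount of 0.1 CPM moved neither ratio count.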
